A study of Mus musculus with 4 samples.

Results

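The T-box factor genes encode transcription factors that share a DNA-binding domain, the T-box, first described in brachyury. The 10 genes described here, Tbx1, Tbx2, Tbx3, Tbx4, Tbx5, Tbx6, Tbx15, Tbx18, Tbx20 and Tbx21, were chosen by name, and their rows were looked up by gene symbol in the deposited lists of a Foxp1 chromatin immunoprecipitation (ChIP-seq) study. They are 10 of the 17 T-box family genes considered and 10 of 21900 protein-coding genes in the RefSeq gene table. The deposited lists together name 8666 distinct genes.

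The study searched for direct targets of Foxp1, a forkhead transcription factor, in distal tubules of the kidney. It used newborn mice of 2 kinds, littermate controls and Foxp1KspKO mice, and there were 4 libraries, 1 ChIP and 1 input for each genotype. Ksp in the name of the knockout stands for the Ksp-cadherin gene, whose promoter is widely used to express Cre in kidney tubule epithelium, so cells of other types in these kidneys may keep Foxp1. Kidneys were digested and passed through a 40 µm sieve to collect tubular cells, and chromatin was sheared to 150 to 300 bp. The sources used here do not give the age in days, the strain or the number of animals behind each library. In the labels, the antibody given for the control ChIP is rabbit IgG and that for the Foxp1KspKO ChIP is a Foxp1 polyclonal antibody, whereas both ChIP libraries are described with the same FoxP1 prefix. The libraries are called here by genotype, and the antibody behind each was not settled. With 1 library per group there is no replicate spread and no test of a difference between the libraries.

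T-box factors act as activators or repressors in the patterning of mesoderm, heart, limb, pharynx and somites, and closely related members are often expressed together and overlap in function. In the mouse urinary tract Tbx18 is known for its role in the mesenchyme around the ureter, which forms ureteral smooth muscle, and Tbx2 and Tbx3 act in the same mesenchyme. These are genes of connective tissue progenitors more than of tubule epithelium. In a preparation of many cells, few cells with signal at a gene and weak signal in many cells cannot be told apart.

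Of the 10 genes, 6 were in the control ChIP list (60.0%) against 29.0% of all protein-coding genes, and 3 were in the Foxp1KspKO list (30.0%) against 20.9%. The 6 were Tbx18, Tbx15, Tbx20, Tbx2, Tbx3 and Tbx4. The 3 of the Foxp1KspKO list, Tbx20, Tbx3 and Tbx4, were all among them, and 0 genes were in the Foxp1KspKO list alone. The count of 3 depended on the p-value limit, since 1 gene, Tbx20, was left at a limit of 0.01, at 0.001 and after Benjamini-Hochberg adjustment of the deposited p-values, where 12.6%, 6.62% and 10.3% of protein-coding genes were left. Tbx1, Tbx5, Tbx6 and Tbx21 (4 of 10) were in neither list, compared with 63.4% of protein-coding genes. The 10 genes were chosen with earlier results from these libraries known. Their differences from all protein-coding genes are therefore not an independent finding. Each list gives 1 p-value per gene, computed by the authors, and holds only values under 0.05, so a gene that is not listed has no value. The p-value is not a level of binding, since no read count, fold enrichment or position comes with it.

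**Figure D1:**
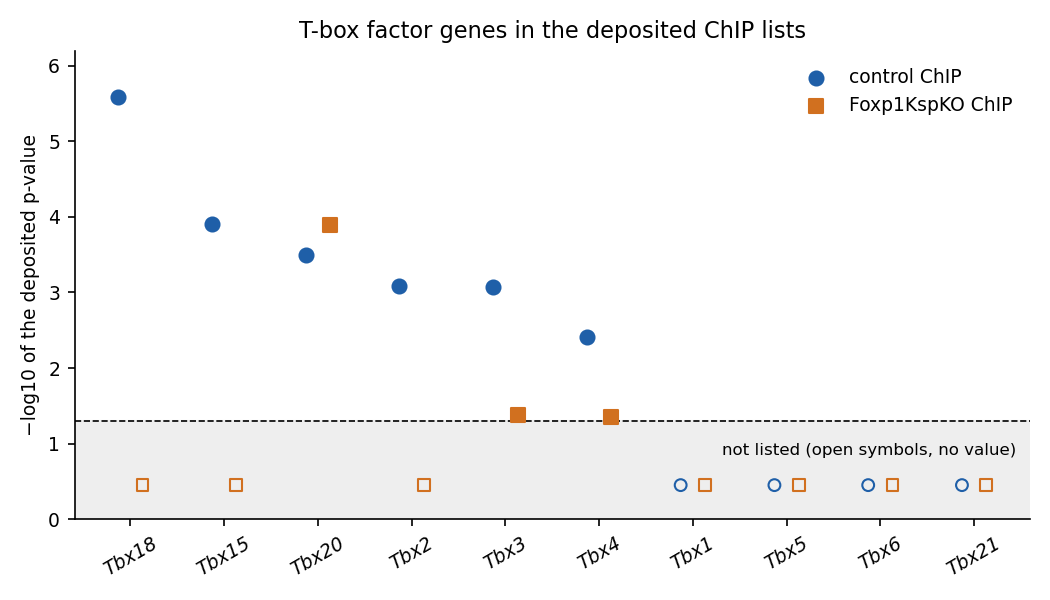
Deposited p-values (−log10, vertical axis) of the 10 T-box factor genes in the control ChIP (circles) and the Foxp1KspKO ChIP (squares), 1 library each. The dashed line is the p-value maximum of 0.05 and open symbols mark genes that are not listed; Tbx18 is highest in the control ChIP at 5.59, and Tbx20 is the highest square at 3.89.

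Promoter windows from RefSeq (GRCm38.p6) were found for 6 of the 10 genes, namely Tbx1, Tbx4, Tbx6, Tbx18, Tbx20 and Tbx21, and Tbx1 had a second start. Tbx2, Tbx3, Tbx5 and Tbx15 had no entry. The 250 bases before the start are shown for the 3 listed genes with an entry and, as a contrast, for Tbx21, which was in neither list. All read 5′ to 3′ along the gene, and capitals mark CG dinucleotides. The windows are chr9:87731261-87731510 on the minus strand for Tbx18, chr9:24774304-24774553 on the minus strand for Tbx20, chr11:85896515-85896764 on the plus strand for Tbx4 and chr11:97115332-97115581 on the minus strand for Tbx21. The Tbx4 start lies 10398 bases inside the annotated gene, and the other 3 lie at its first base.

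Tbx18: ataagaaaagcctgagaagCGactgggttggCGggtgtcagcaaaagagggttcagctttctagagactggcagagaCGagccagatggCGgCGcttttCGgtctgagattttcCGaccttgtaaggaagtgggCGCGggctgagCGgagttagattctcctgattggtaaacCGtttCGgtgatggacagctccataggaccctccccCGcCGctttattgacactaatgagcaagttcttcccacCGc

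Tbx20: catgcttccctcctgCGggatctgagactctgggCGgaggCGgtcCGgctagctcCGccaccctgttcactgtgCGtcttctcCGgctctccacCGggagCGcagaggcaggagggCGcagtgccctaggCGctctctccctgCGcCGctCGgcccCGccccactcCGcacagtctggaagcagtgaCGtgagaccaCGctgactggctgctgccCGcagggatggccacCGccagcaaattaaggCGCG

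Tbx4: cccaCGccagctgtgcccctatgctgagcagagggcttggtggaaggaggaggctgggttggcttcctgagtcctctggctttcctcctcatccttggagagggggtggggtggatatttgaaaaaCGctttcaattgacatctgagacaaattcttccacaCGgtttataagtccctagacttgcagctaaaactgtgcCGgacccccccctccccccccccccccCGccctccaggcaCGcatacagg

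Tbx21: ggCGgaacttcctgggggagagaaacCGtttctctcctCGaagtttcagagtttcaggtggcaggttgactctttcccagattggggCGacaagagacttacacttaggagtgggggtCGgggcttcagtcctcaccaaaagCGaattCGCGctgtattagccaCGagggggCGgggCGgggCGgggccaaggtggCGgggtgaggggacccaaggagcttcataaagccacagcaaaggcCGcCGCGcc

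The upstream sequences of Tbx18 and Tbx20 hold 15 and 22 CG dinucleotides, that of Tbx21 16 and that of Tbx4 6. Over the whole 300-base window the counts were 15 for Tbx18, 26 for Tbx20, 8 for Tbx4 and 21 for Tbx21, against a median of 13 for protein-coding promoters and 18 for those of genes in either the control or the Foxp1KspKO list. The genes in neither list thus include windows as rich in CG as those of listed genes, with 26 and 16 for the 2 starts of Tbx1, although Tbx6 had 7. The GC content of the windows ran from 51.7% for Tbx18 to 69.0% for the inner start of Tbx1, with a median of 56.3% over protein-coding promoters.

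Both strands of the 7 windows were searched for the forkhead motifs TGTTTAC and TGTTTAT and the T-box site GGTGTGA, and 0 windows held any of them. Of 32851 promoter windows of the same length, noncoding genes included, 3.65% hold TGTTTAC, 4.60% TGTTTAT and 3.98% GGTGTGA. Among the 21263 windows of protein-coding genes the shares were 3.01%, 3.92% and 3.68%. The shorter forkhead core TGTTT, which both forkhead motifs contain, was added after the longer motifs gave no match. It was also in 0 of the 7 windows, beside 50.5% of all windows and 45.5% of those of protein-coding genes. This says only that these letters are not in these windows.

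Tbx18, Tbx15 and Tbx20 belong with Tbx1 to the Tbx1 subfamily, and 3 of these 4 genes were in the control list. Tbx18 (chromosome 9, 87702800 to 87731260, GRCm38), the ureteral mesenchyme regulator, had the lowest p-value of the 10 genes, with a deposited p-value of 2.59e-06 in the control ChIP, and it was not listed for the Foxp1KspKO ChIP. It ranked 1437 of 6799 control genes, so that 21.1% of that list had a lower value. Tbx15 (chromosome 3, 99240348 to 99354260), a regulator of skeletal and fat tissue development and of coat pattern in mice, had a deposited p-value of 1.23e-04 in the control ChIP and was not listed for the Foxp1KspKO ChIP. It is the longest of the 10 genes at 113913 bp. Both genes were therefore seen in the control ChIP alone.

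Tbx20 (chromosome 9, 24720812 to 24774303), a heart regulator, had deposited p-values of 3.27e-04 (control ChIP) and 1.29e-04 (Foxp1KspKO ChIP). It was the only one of the 3 genes in both lists with the lower p-value in the Foxp1KspKO ChIP, by 0.40 on the −log10 scale (control minus Foxp1KspKO −0.40). Such an order held for 27.8% of the protein-coding genes in both lists, while 72.2% had the lower value in the control ChIP. Its place differed more than its p-value, since 41.2% of control genes but 18.5% of Foxp1KspKO genes had a lower one. Tbx1 (chromosome 16, 18580979 to 18590671), which patterns the pharyngeal arches, was in neither list.

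Tbx2, Tbx3, Tbx4 and Tbx5 form the Tbx2 subfamily, of which 3 of 4 were in the control list, beside 29.0% of all protein-coding genes. The p-values of Tbx2 and Tbx3 were close to the middle of that list, while 60.8% of it had a lower value than Tbx4. Tbx2 (chromosome 11, 85832615 to 85841948), a transcriptional repressor, had a deposited p-value of 8.17e-04 in the control ChIP and was not listed for the Foxp1KspKO ChIP. Its closest paralog Tbx3 (chromosome 5, 119670534 to 119684724), also a repressor, had deposited p-values of 8.59e-04 (control ChIP) and 0.0418 (Foxp1KspKO ChIP). The control values of Tbx2 and Tbx3 were thus nearly equal, at ranks 3209 and 3231, yet only Tbx3 was listed for the Foxp1KspKO ChIP. Whether Tbx2 lay just above 0.05 or far above it there cannot be read from the files.

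Tbx4 (chromosome 11, 85886367 to 85916097), which acts in hindlimb and lung mesenchyme, had deposited p-values of 0.00393 (control ChIP) and 0.0452 (Foxp1KspKO ChIP). It had the highest control p-value of the 6 listed genes and the highest Foxp1KspKO value of the 3. The Foxp1KspKO values of Tbx3 and Tbx4 were 48.6 and 11.5 times their control values (differences of 1.69 and 1.06 on the −log10 scale), and both lay near the end of the list, where 93.4% and 97.0% of Foxp1KspKO genes had lower p-values. Tbx5 (chromosome 5, 119796514 to 119885220), the forelimb and heart regulator, was in neither list although it is 88707 bp long.

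Tbx6 (chromosome 7, 126781483 to 126785548), which specifies presomitic mesoderm, is the shortest of the 10 genes at 4066 bp and was in neither list. Tbx21 (chromosome 11, 97098007 to 97115331), known as T-bet and a regulator of T helper cells, was in neither list either. The 6 control genes had a median length of 29096 bp and the 4 genes in neither list 13509 bp. Over all protein-coding genes the same medians were 23814 bp for those in the control list and 15158 bp for those in neither.

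The median deposited p-value of the 6 control genes was 5.72e-04, against 0.00113 for all 6344 protein-coding genes of the control list. Apart from Tbx18 and Tbx4, the control genes lay between 35.7% and 47.5% of the way down the list, in its stronger part but close to its middle. In the Foxp1KspKO ChIP the 3 listed genes took very different places, with Tbx20 in the stronger part and Tbx3 and Tbx4 at the weak end. Among the genes with the lowest p-values in either library there was no T-box factor of the 10, and 1436 control genes and 916 Foxp1KspKO genes had lower values than the lowest of them.

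**Figure D2:**
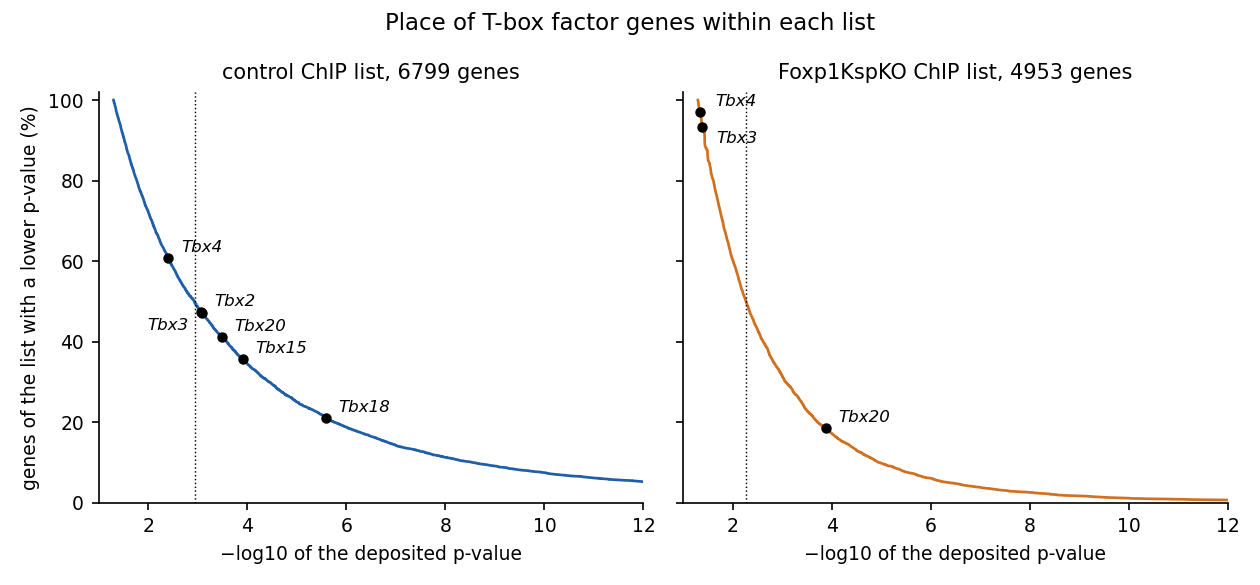
Each curve gives, for a −log10 p-value (horizontal axis, drawn from 1 to 12), the percentage of the genes in that list with a lower p-value, and points mark T-box factor genes. Tbx18 sits at 21.1% of the control list and Tbx4 at 60.8%, and in the Foxp1KspKO list Tbx20 sits at 18.5% with Tbx3 and Tbx4 at 93.4% and 97.0%; dotted lines are the list medians.

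Of the 6 control genes, 3 were also in the Foxp1KspKO list, beside 45.7% of all protein-coding control genes, and for Tbx3 and Tbx4 this rested on Foxp1KspKO p-values above 0.01. The unique list, in which the authors collected genes particular to the control ChIP, held 3 of the 10, Tbx2, Tbx15 and Tbx18, against 15.1% of protein-coding genes. As a share of the control genes this was 3 of 6, against 52.0% of all protein-coding control genes.

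Several T-box genes lie side by side in the genome, which matters for lists that name genes and not sites. Tbx2 and Tbx4 are neighbours on chromosome 11 with 44419 bp between them, and Tbx3 and Tbx5 are neighbours on chromosome 5 with 111790 bp between them. In the first pair both genes were in the control list and only Tbx4 was in the Foxp1KspKO list. In the second pair Tbx3 was in both lists and Tbx5 in neither. From 100 kb below to 300 kb above the lower end of Tbx2, 1 of the 7 other annotated genes was in a list, Brip1, a DNA repair helicase gene, with a deposited p-value of 0.0312 in the Foxp1KspKO ChIP. Among those 7, only Brip1 and Bcas3 are protein-coding. Around Tbx3 the count was 0 of 9, and all 9 are noncoding, among them Tbx3os1, which overlaps Tbx3, and Tbx3os2. Over all 49997 RefSeq genes, many of them noncoding, the control share was 13.6% and the Foxp1KspKO share 9.90%. Over protein-coding genes these shares were 29.0% and 20.9%. With so few protein-coding genes, the counts do not show that listing was confined to the T-box genes. The sources used here do not say how reads were assigned to genes.

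**Figure D3:**
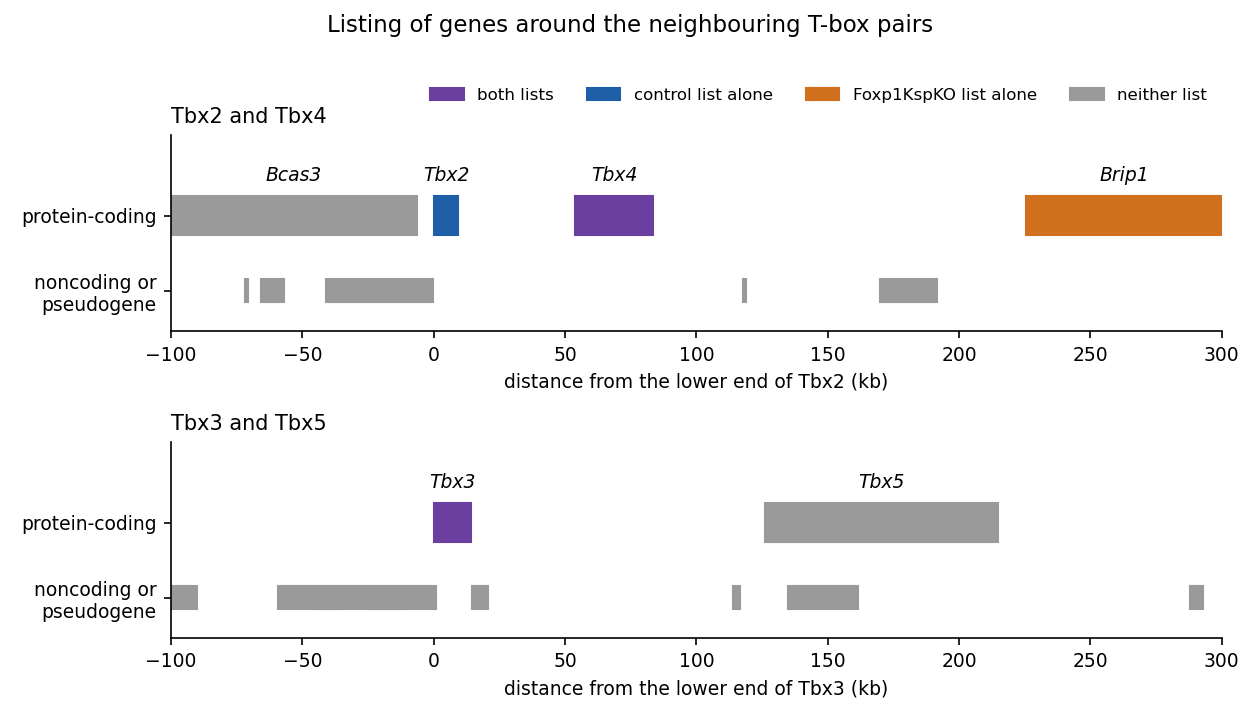
Genes around Tbx2 and Tbx4 (top) and Tbx3 and Tbx5 (bottom) by distance from the lower end of Tbx2 or Tbx3 in kb, with protein-coding genes above noncoding genes and pseudogenes, coloured by the list that holds them. Only Tbx2, Tbx3, Tbx4 and Brip1 are coloured, and Brip1, at the right, is in the Foxp1KspKO list alone.

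Of the 20 positions next to the 10 genes among protein-coding genes, 4 were held by another of the 10. Of the other 16, 4 were in the control list against 2 in the Foxp1KspKO list, beside 29.0% and 20.9% of all protein-coding genes. The neighbours of Tbx18, Cep162 and Nt5e, lie 447264 bp and 596349 bp away and were in neither list. Those in the control list were Med13l (0.0193) beside Tbx3, Ypel3 (0.00675) beside Tbx6, Wars2 (0.00271) beside Tbx15 and Herpud2 (2.87e-05) beside Tbx20, where the numbers are deposited control p-values. Wars2, which encodes a mitochondrial tRNA synthetase, was also in the Foxp1KspKO list with a deposited p-value of 0.00444. Ypel3 ends 973 bp from the unlisted Tbx6 and was in the control list alone, while Ppp4c, 318 bp away on the other side, was not listed. The remaining neighbours, Gnb1l and Gp1bb beside Tbx1, Bcas3 beside Tbx2, Rbm19 beside Tbx5, Ppp4c beside Tbx6, Spag17 beside Tbx15, Cypt4 beside Tbx20, and Osbpl7 and Tbkbp1 beside Tbx21, were in neither list.

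Apart from Tbx2, the genes of the control list stand in wide gaps between protein-coding genes. The free sequence on both sides added up to 1044 kb for Tbx18, 1017 kb for Tbx3, 550 kb for Tbx15, 429 kb for Tbx20, 186 kb for Tbx4 and 51.0 kb for Tbx2. It was 343 kb for the unlisted Tbx5, 49.9 kb for Tbx21, 43.9 kb for Tbx1 and 1.29 kb for Tbx6. Over all protein-coding genes the median was 56.0 kb for genes in the control list and 34.4 kb for the rest. The part of gap size and gene length in the listing of T-box genes was not tested.

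By the distance between −log10 p-values in the 2 ChIP libraries, over 3086 genes in both lists, the genes most like Tbx20 were Pou3f2 (control 3.05e-04, Foxp1KspKO 1.15e-04) and Tcf23. Clcn3 (control 8.69e-04, Foxp1KspKO 0.0377) was among those most like Tbx3, and those most like Tbx4 were Rtl8a and Pes1. With only 2 values per gene and many genes, this is a weak measure of likeness. Some p-values were shared exactly, Tbx2 with Gm10767, Tbx3 with Nktr and Tbx20 with Ddah1 in the control ChIP, and Tbx20 with Hes2 and Tbx3 with Alad in the Foxp1KspKO ChIP. Such ties were common, since 67.2% of control genes and 61.0% of Foxp1KspKO genes shared a p-value with another gene.

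Matched by gene number, the other 7 T-box family genes had 2 members in the control list against 2 in the Foxp1KspKO list. Eomes, which acts in mesoderm, brain and lymphocyte development, had a deposited p-value of 2.15e-07 in the control ChIP, which was lower than that of Tbx18. Its deposited p-value in the Foxp1KspKO ChIP was 6.75e-04. Mga, which pairs a T-box with a Max-interacting domain, had 4.83e-06 as its deposited p-value in the control ChIP alone and was in the unique list. Tbr1, a regulator of cortical neurons, was in the Foxp1KspKO list alone with a deposited p-value of 0.00627. Tbx10, Tbx19 and Tbx22 were in neither list. A control row with the symbol T and a deposited p-value of 0.00637 carries gene number 21331, which the RefSeq table gives to T2, a separate gene that ends 11695 bp from brachyury. By its number, brachyury was in neither list, and the row was not counted for it. By symbol, the rule used for the 10 genes, the same row would place brachyury in the control list alone. Which gene the row stands for was not settled.

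Among partners and corepressors of T-box factors, 53.3% were listed for the control ChIP and 40.0% for the Foxp1KspKO ChIP. Genes downstream of T-box factors stood at 47.1% and 35.3%, beside 29.0% and 20.9% of all protein-coding genes. Both groups were picked when earlier results from these libraries were already known. Their excess over all protein-coding genes is therefore not an independent finding. Of 15 partners and corepressors 8 were in the control list against 6 in the Foxp1KspKO list. The lowest values belonged to Sall1, a zinc finger regulator of the metanephric mesenchyme, with deposited p-values of 2.31e-22 (control ChIP) and 5.16e-11 (Foxp1KspKO ChIP), and to the corepressor gene Tle3 with 3.85e-08 and 2.35e-06. The next were Isl1, Tle1 and Hdac2 with deposited control p-values of 8.28e-05, 3.42e-04 and 9.13e-04, and Hdac2 was in the control list alone. Ripply2, which turns Tbx6 into a repressor in somites, had deposited p-values of 0.0238 (control ChIP) and 0.00798 (Foxp1KspKO ChIP).

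Of 17 genes known downstream of T-box factors in heart, limb, somite, lung or pharynx, 8 were in the control list against 6 in the Foxp1KspKO list. Ncam1 had the lowest deposited control p-value at 8.97e-10, followed by the gap junction gene Gja1 (3.03e-09) and the Notch ligand gene Dll1 (6.42e-09), and Fgf10 had 1.94e-06. Gja1 and Fgf10 were not listed for the Foxp1KspKO ChIP. Fgf10 is a target of Tbx4 and Tbx5 in lung and limb. Tbx5 was in neither list, and Tbx4 was in both, with a deposited Foxp1KspKO p-value of 0.0452. At a limit of 0.01 Tbx4, like Fgf10, was in the control list alone, but at 0.001 Tbx4 was in neither list while Fgf10 stayed. The likeness of the 2 genes thus depended on the limit.

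Of 20 regulators of ureter and kidney mesenchyme 11 were in the control list against 7 in the Foxp1KspKO list. The shares of all protein-coding genes were 29.0% and 20.9%. This group too was picked with earlier results from these libraries known, so its excess is not an independent finding. Among the lowest deposited control p-values were those of the hedgehog receptor gene Ptch1 (8.38e-64), Tshz3 (7.71e-13), Six2 (1.22e-11) and Sox9 (7.77e-09), and each of these 4 was also in the Foxp1KspKO list. Tbx18, which acts beside Tshz3 and Sox9 in the ureteral mesenchyme, had a far higher p-value and was not in that list. The same held for other regulators, since 5 of the 11 were, like Tbx18, in the control list alone. The other 6 were in both lists, beside 45.7% of all protein-coding control genes. Ctnnb1 was in the Foxp1KspKO list alone with a deposited p-value of 0.00224.

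**Figure D4:**
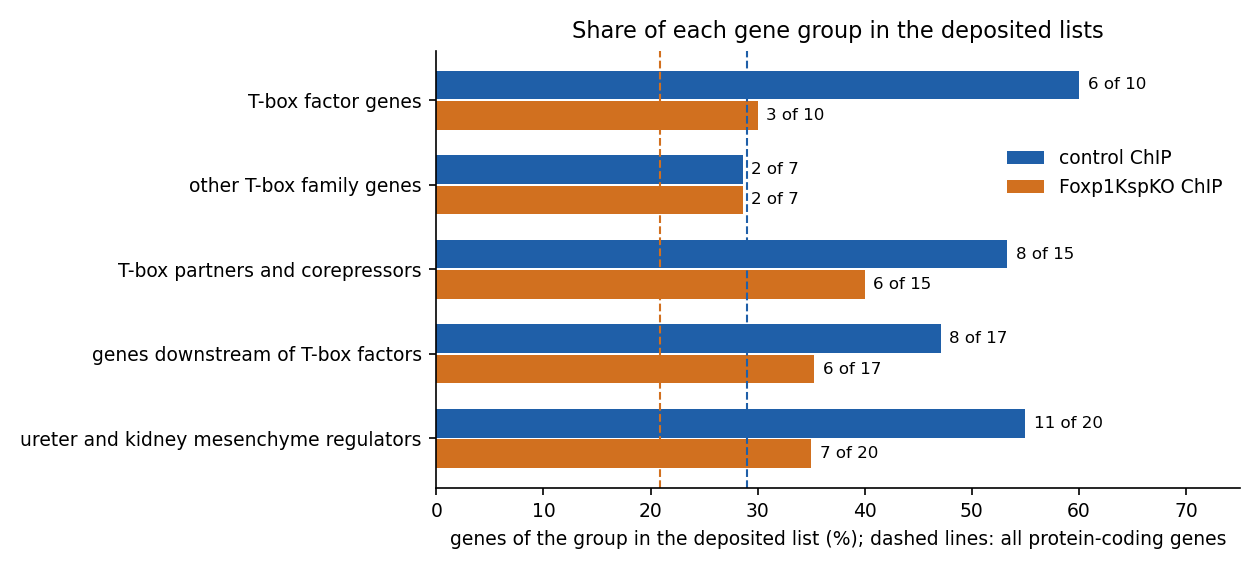
Percentage of each gene group in the control list (blue) and the Foxp1KspKO list (orange), with counts beside the bars and dashed lines at the shares of all protein-coding genes, 29.0% and 20.9%. The 10 T-box factor genes are at 60.0% and 30.0%. The other 7 T-box family genes, matched by gene number, are at 28.6% in both lists.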

How the data were processed

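The labels' protocols describe collagenase digestion of newborn kidneys, sieving, sonication and immunoprecipitation, with an input library for each genotype. Programs and builds in the submitters' processing notes are Trimmomatic, FastQC, Bowtie2, edgeR and deepTools, and mm10 and GRCm38, without versions or roles. The authors deposited 3 gene lists with 1 p-value per gene (3.27e-04 for Tbx20 in the control list, for example). The test, its reference library, the window around a gene and any adjustment are not stated in these sources, so read depth is unknown and no interval is given. Sheets were tied to the ChIP libraries by the sample descriptions. The 10 genes were matched by symbol, and other genes by NCBI gene number (repeated numbers kept their lowest p-value). Shares use 21900 protein-coding genes of the RefSeq table (GRCm38.p6), whose 1-based coordinates describe genes, not binding sites. With 1 library per group no test was run.

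The members and gene lists were chosen with earlier results of these data known. Text names the 10 genes, all other T-box genes, their protein-coding neighbours, up to 5 genes with the lowest control p-value per list, up to 3 genes per list in the Foxp1KspKO list alone, and the 2 genes most like each gene in both lists. Ripply2, the genes that share a p-value exactly and unlisted tubule genes were named outside this rule, after their values were seen, and some genes that it covers are not reported here. Alternatives were p-value limits of 0.01 and 0.001, Benjamini-Hochberg adjustment, gene number matching, a rebuilt unique list, all 49997 RefSeq genes and searching 1 strand. Python 3.11.15, numpy and pandas were used. The adjustment and the motif search were tested on simulated data.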

Additional observations from a re-analysis of the deposited data

How the results depend on the processing

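The control count of 6 T-box genes was also 6 at a p-value limit of 0.01, after Benjamini-Hochberg adjustment and by gene number, and 5 at 0.001, where Tbx4 was lost. The share of protein-coding genes left in the control list, 29.0% as deposited, was 21.1% at 0.01, 21.3% after adjustment and 14.3% at 0.001. The Foxp1KspKO count depended on the limit: of 3 genes, 1 was left at 0.01, 1 at 0.001 and 1 after adjustment, Tbx20 each time, while 12.6%, 6.62% and 10.3% of protein-coding genes were left. The 3 genes of the unique list were the same when it was rebuilt from control genes absent from the Foxp1KspKO list. Over all 49997 RefSeq genes, many of them noncoding, the background shares were 13.6% for the control, 9.90% for the Foxp1KspKO and 6.96% for the unique list. Motif counts stayed 0 on 1 strand. No paired analysis was possible because each group holds 1 library. Depth is unknown, so a gene that is not listed may lie below detection.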

Other observations

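The lists record immunoprecipitated chromatin and not expression, so they cannot show which cells the sieved digest held. The counts below stand beside 29.0% (control list) and 20.9% (Foxp1KspKO list) of all protein-coding genes. These groups were also chosen with earlier results known, so differences from those shares are not independent findings. Of 5 smooth muscle genes, which mark the tissue that Tbx18-expressing ureteral mesenchyme forms, 1 was in the control list (Myh11, deposited p-value 0.0328) and 0 in the Foxp1KspKO list. Of 5 stromal genes 3 were in each list, led by Foxd1 with deposited p-values of 1.09e-20 (control ChIP) and 9.13e-11 (Foxp1KspKO ChIP). Meis1 was in the control list alone (deposited p-value 7.16e-18) and Pdgfrb in the Foxp1KspKO list alone (deposited p-value 0.0366). Of 5 endothelial genes 3 were in the control list against 1 in the Foxp1KspKO list, Kdr. Among all protein-coding control genes 45.7% were also in the Foxp1KspKO list. Of 5 immune genes 1 was in each list, Adgre1. Of 5 tubule genes 1 was in each list, the regulator gene Pax2 with deposited p-values of 4.48e-28 and 1.84e-04, and Cdh16, Epcam, Slc12a3 and Aqp2 were in neither.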
